A study of Homo sapiens with 5 samples.

Results

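The regions described are promoter-proximal sites at which the deposited peak lists place Fra-1 and E2F1 together and no MYC. They were chosen by peak calls: a Fra-1 peak was kept when it shared at least 1 bp with an E2F1 peak, shared none with a MYC peak, and touched a window from 2 kb upstream to 2.5 kb downstream of any annotated transcription start site. Of 17311 Fra-1 peaks on chromosomes 1 to 22 and X, 2823 met the rule (16.3%, 95% Wilson interval 15.8 to 16.9). They made up 61.8% (60.4 to 63.2) of the 4567 Fra-1 peaks that touched a promoter window. The number depends on the lists and the annotation: it was 68 with the Fra-1 and E2F1 lists reduced to the number of MYC peaks, and 922 with canonical protein-coding starts only. The other Fra-1 promoter peaks were 609 with E2F1 and MYC, 1131 with neither, and 4 with MYC alone.

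The study mapped transcription factors by ChIP-Seq in LM2 cells, a highly lung-metastatic derivative of the triple-negative breast cancer line MDA-MB-231, to learn where they sit together across the genome. Each factor was measured in 1 library of cells that carried no labelled treatment, with an antibody to Fra-1, MYC or E2F1, and all 3 libraries were compared with the same input chromatin. The cells are a single subline, so the sites are those of LM2 cells and not of breast cancer cells in general. The EZH2 and input samples were not used as peak lists, and the fourth factor was not analysed here.

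Fra-1, the product of FOSL1, belongs to the AP-1 family, in which FOS proteins pair with JUN proteins and bind the letters TGACTCA, and its level rises with signalling through the RAS and ERK pathway in invasive breast cancer cells. E2F1 pairs with DP proteins, is held in check by the retinoblastoma protein, and is best known for switching on genes of DNA replication at CpG-rich promoters. MYC pairs with MAX at the E-box CACGTG and drives genes of growth, ribosome assembly and metabolism.

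Sequences of members with and without an exact AP-1 site show what the peaks sit on. All are plus-strand GRCh37 (hg19) sequence, 5′ to 3′, with each exact AP-1 site in capitals (TGACTCA, or TGAGTCA, the same site read on the other strand). The first 4 had the strongest joint signal or the strongest Fra-1 signal among members with an AP-1 site at a named protein-coding gene, and each stretch is centred on the Fra-1 summit.
DNAJB5 (chr9:34992515-34992615): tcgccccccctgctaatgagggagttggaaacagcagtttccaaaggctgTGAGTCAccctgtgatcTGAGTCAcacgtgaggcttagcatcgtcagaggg
PFKP (chr10:3113747-3113847): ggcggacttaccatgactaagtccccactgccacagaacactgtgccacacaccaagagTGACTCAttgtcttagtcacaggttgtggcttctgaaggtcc
RTN4 (chr2:55278458-55278558): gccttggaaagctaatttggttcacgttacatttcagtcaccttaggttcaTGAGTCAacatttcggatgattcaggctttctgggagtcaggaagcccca
NCEH1 (chr3:172429075-172429175): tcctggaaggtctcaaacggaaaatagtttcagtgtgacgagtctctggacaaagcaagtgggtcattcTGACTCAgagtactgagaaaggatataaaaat

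A rare arrangement put the AP-1 site itself at the start of transcription. Only 48 members (1.70%, 1.28 to 2.25) had an AP-1 site within 10 bp of the Fra-1 summit and that summit within 50 bp of a protein-coding start. The 5 with the largest Fra-1 fold enrichment are at BEST3, LTBP1, AKNAD1, FANK1 and SAP30BP, and FOSL1, the gene of Fra-1 itself, has the same arrangement. Shorter stretches are given where an annotated untranslated exon overlaps.
BEST3 (chr12:70083071-70083099): aggaagttcagTGAGTCAgcgctgccggt
LTBP1 (chr2:33500910-33501010): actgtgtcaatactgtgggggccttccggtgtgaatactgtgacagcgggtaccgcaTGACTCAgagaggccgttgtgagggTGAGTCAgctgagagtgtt
AKNAD1 (chr1:109373269-109373369): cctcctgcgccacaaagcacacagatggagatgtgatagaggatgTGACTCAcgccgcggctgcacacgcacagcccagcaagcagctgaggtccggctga
FANK1 (chr10:127662038-127662066): attcagtgagaTGACTCAcagtaagaggt
SAP30BP (chr17:73699835-73699863): acttgggtttcTGAGTCAtttgtcatctg
FOSL1 (chr11:65667843-65667871): ctgctgggttcTGACTCAcccgcgccgtg

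The next sequences lack an exact AP-1 site. DRAP1 held the strongest Fra-1 peak of all members, WASH2P was the other of the 10 strongest without the site, and SH3GL1 belongs to the nine-gene set of the study. WASH2P belongs to a family with near-identical copies, so its position is uncertain.
DRAP1 (chr11:65686813-65686841): gtcttaaccggcggcgctaggactccgcg
WASH2P (chr2:114341570-114341670): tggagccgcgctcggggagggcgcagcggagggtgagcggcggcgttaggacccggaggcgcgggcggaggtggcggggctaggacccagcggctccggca
SH3GL1 (chr19:4400678-4400778): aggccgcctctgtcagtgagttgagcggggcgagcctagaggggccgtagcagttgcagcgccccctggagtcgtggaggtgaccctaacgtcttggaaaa

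The strength of a peak is given as fold enrichment. It is the ratio of fragment pileup at the summit (its highest point) to the local background estimated from the input. A constant is added to both, which lowers the ratio where the background is low. Because peak calls chose the members, strengths are a description and were not tested. Across the 2823 members the Fra-1 fold enrichment had a median of 8.65 (quartiles 6.46 and 12, range 2.79 to 91.1), on a median pileup of 22 fragments. The E2F1 fold enrichment had a median of 9.07 (quartiles 6.29 and 15.3, range 2.56 to 85.4). The E2F1 value exceeded the Fra-1 value in 1364 members (48.3%). The libraries differ in antibody and depth, so this share does not show which factor bound more strongly. With 1 library per factor there is no replicate error, and every interval below covers counting error over peaks only. Peaks of one library are not replicates of LM2 cells.

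**Figure D1:**
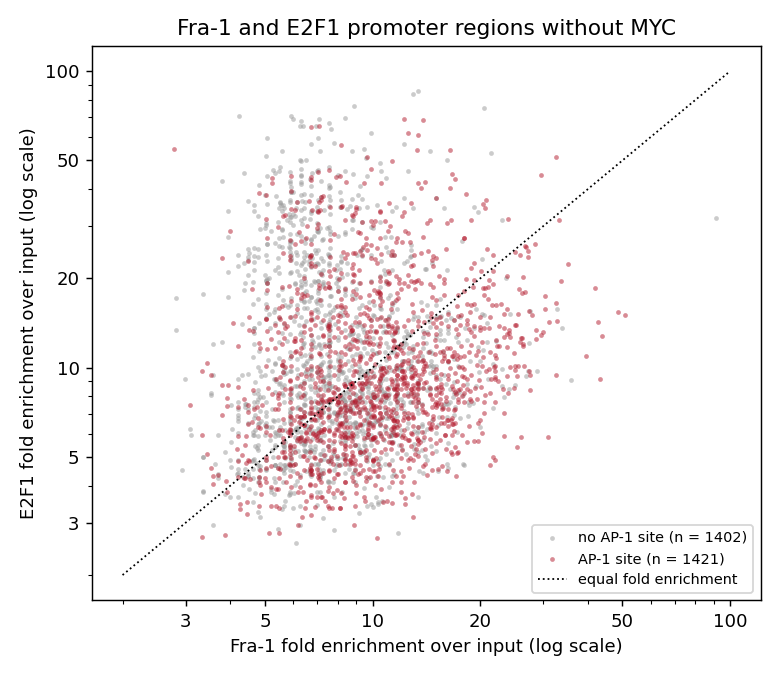
Fold enrichment over input of Fra-1 (x axis, log scale) and E2F1 (y axis, log scale) in the 2823 members, 1 point per region, red where an exact AP-1 site lies within 50 bp of the Fra-1 summit (1421 regions) and grey where none does (1402). Points fall on both sides of the dotted line of equal enrichment, and most of the strongest Fra-1 peaks carry the site, with DRAP1 at 91.1 as the exception at the far right.

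At DRAP1, which encodes a corepressor that acts on the TATA-binding protein, the Fra-1 peak (chr11:65686710-65686997) reached 91.1-fold with a pileup of 130, and E2F1 reached 31.9-fold. Its summit lay 21 bp downstream of the start in a 5′ UTR exon, in sequence with 77.4% GC. The next strongest Fra-1 peaks were at the lncRNA genes LINC03002 (50.7-fold, E2F1 15.0-fold) and PRECSIT (48.4-fold, E2F1 15.4-fold), each with an AP-1 site. DNAJB5, an Hsp40 co-chaperone gene, followed with 43.7-fold for Fra-1 and 12.8-fold for E2F1, 304 bp upstream of a start. The pseudogene COX6CP18 had 43.3-fold and the gene annotated as AL137118.1 had 42.8-fold. PFKP, the platelet form of phosphofructokinase in glycolysis, had 41.8-fold for Fra-1 and 18.6-fold for E2F1, with summits 4 bp apart in an intron. IGF2BP2, an RNA-binding protein gene, had 39.6-fold, WASH2P 35.9-fold and SPATA12 35.2-fold. Of these 10 strongest Fra-1 peaks, DRAP1 and WASH2P lacked an exact AP-1 site, and both lie in sequence over 70% GC.

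Regions strong for both factors were ranked by the smaller of the 2 fold enrichments. RTN4, the gene of the endoplasmic reticulum protein Nogo, led with 32.5-fold for Fra-1 and 51.2-fold for E2F1, but its E2F1 peak was 1467 bp wide and the summits stood 904 bp apart. DRAP1 came next. ITGB1-DT, the lncRNA divergent from the integrin beta 1 gene, had 33.2-fold and 31.5-fold with summits 191 bp apart, and NCEH1, a cholesterol ester hydrolase gene, had 29.7-fold and 44.7-fold with summits 231 bp apart. BIN1 had 26.8-fold for Fra-1 and 25.5-fold for E2F1 with summits 35 bp apart. NR1D1, the gene of the clock repressor REV-ERB alpha, had 25-fold and 24.6-fold with summits 701 bp apart. CLIP1, a microtubule plus-end protein gene, had 25.8-fold and 24.0-fold with summits 48 bp apart. The remaining 3 of the leading 10 were at lncRNA genes without a symbol.

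The members gathered at start sites more than Fra-1 promoter peaks without E2F1, and less than those with MYC. The Fra-1 summit lay a median of 559 bp from the nearest start (quartiles 114 and 1350), against 140 bp with MYC and 886 bp without E2F1 and MYC. Within 100 bp of a start lay 23.1% of members. The difference from Fra-1 peaks with E2F1 and MYC was -19.4 percentage points (95% Newcombe interval -23.7 to -15.3), and from those without either it was 9.74 points (7.15 to 12.2). Within 1 kb lay 64.4% (62.7 to 66.2) of members, -17.7 points (-21.0 to -14) from the first class and 10.6 points (7.19 to 14) from the second. The window itself was part of the rule, and the position inside it was not used directly. The classes were set by E2F1 and MYC peak calls, which have their own positions relative to starts. These differences are therefore not independent of the rule and are a description. Summits were upstream of the nearest start in 51.5% of members.

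**Figure D2:**
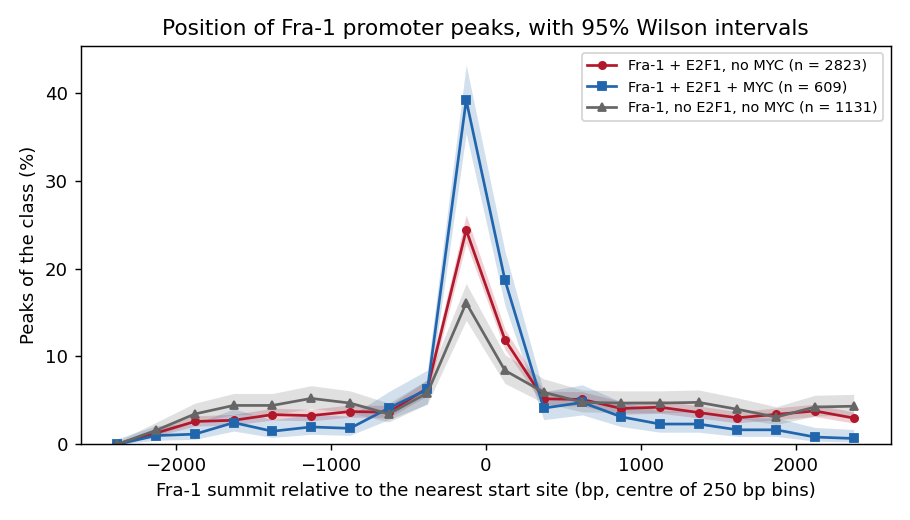
Share of peaks of each class (y axis, percent) by position of the Fra-1 summit relative to the nearest start site (x axis, bp, bins of 250 bp, negative upstream), with 95% Wilson intervals shaded. The red line of the 2823 members peaks just upstream of the start, below the blue line of the 609 peaks with MYC and above the grey line of the 1131 peaks without E2F1 and MYC.

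Most members did not sit in the leading promoter of a protein-coding gene. Only 32.7% (31.0 to 34.4) touched the window of a canonical protein-coding start, against 59.8% (55.8 to 63.6) of the Fra-1 peaks with E2F1 and MYC and 14.6% (12.7 to 16.8) of those without either. The window of any protein-coding transcript, alternative starts included, held 68.5% (66.7 to 70.2), and the nearest start belonged to a lncRNA gene in 27.9% (26.3 to 29.6). By annotation, the Fra-1 summit lay in an intron in 57.3% of members, outside annotated genes in 17.6%, in an exon of a non-coding transcript in 13.5%, in a 5′ UTR exon in 6.73%, in a 3′ UTR exon in 2.52% and in a coding exon in 2.37%. In the class with MYC, 18.7% (15.8 to 22) of summits lay in a 5′ UTR exon, above the 6.73% (5.86 to 7.71) of the members.

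Fra-1 and E2F1 summits lay close together. Their median distance in the members was 40 bp (quartiles 15 and 95), with 18.2% within 10 bp, 56.9% (55.1 to 58.7) within 50 bp, 91.3% within 250 bp and 3.93% more than 500 bp apart. The members shared 2755 distinct E2F1 peaks, of which 64 held 2 or more members, and 1619 members (57.4%) lay wholly inside their E2F1 peak. Overlap was part of the rule, so these distances are a description. At UBTF, the gene of a ribosomal RNA transcription factor, both summits and an AP-1 site fell on the same base, with 26.3-fold for Fra-1 and 11.8-fold for E2F1. At RPL3 the Fra-1 summit was 3108 bp from the summit of an E2F1 peak 4108 bp wide, so the same overlap rule can join signals far apart.

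The 1607 members with summits up to 50 bp apart had a median E2F1 fold enrichment of 7.95, and 55.3% (52.9 to 57.7) had an AP-1 site at the Fra-1 summit. The 247 members with summits more than 250 bp apart had a median E2F1 fold enrichment of 21.9 and a median E2F1 peak width of 1062 bp, against 335 bp over all members, and 47.0% (40.8 to 53.2) had an AP-1 site, a difference of 8.36 points (1.67 to 14.9). Where summits were more than 100 bp apart, the E2F1 summit was the closer to a start in 61.9% (58.1 to 65.6) of 646 members. Since the Fra-1 peak had to overlap the E2F1 peak, summits far apart need a wide E2F1 peak, and the difference in width follows from the rule.

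The E2F1 fold enrichment of the members was lower farther from the start. In the 652 members within 100 bp of a start the median E2F1 fold enrichment was 13.3, and it was 10.0, 8.48 and 7.65 in the members over 100 and up to 500 bp, over 500 bp and up to 1 kb, and over 1 kb and up to 2.5 kb away. Fra-1 went the other way, from 7.99 to 9.19. Summits within 50 bp of each other made up 47.9% (44 to 51.7) of the nearest members and 66.9% (63.9 to 69.8) of the 967 members over 1 kb and up to 2.5 kb away. For the 6823 Fra-1 and E2F1 peaks without MYC that lay outside every promoter window, the E2F1 median was 7.10-fold and the median summit distance 28 bp.

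**Figure D3:**
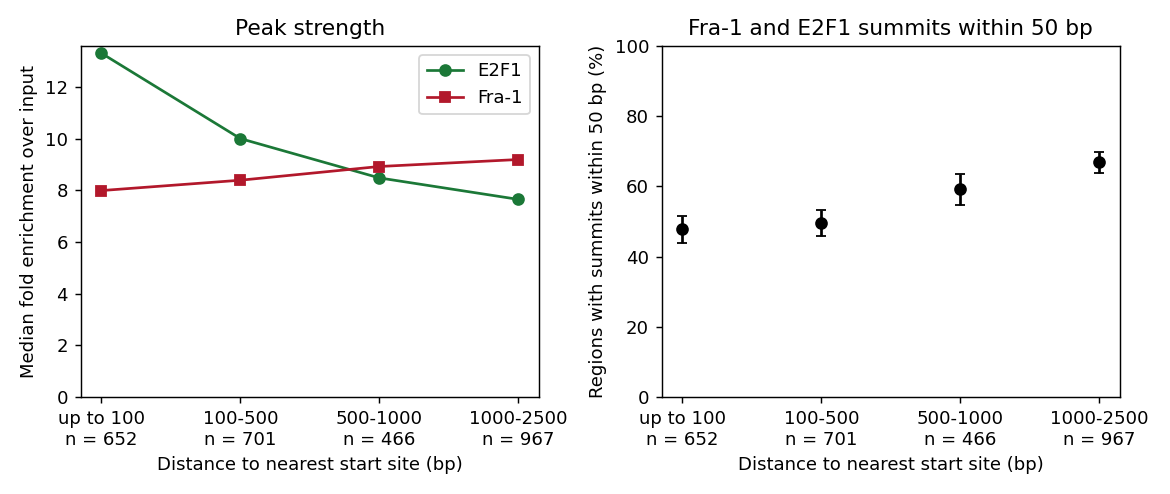
Left, median fold enrichment over input (y axis) of E2F1 (green circles) and Fra-1 (red squares) in the members by distance of the Fra-1 summit to the nearest start (x axis, bp). Right, the share of members with Fra-1 and E2F1 summits within 50 bp of each other (percent, 95% Wilson intervals) in the same distance classes. E2F1 falls from 13.3 to 7.65 while the share of close summits rises from 47.9% to 66.9%.

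Each motif was looked for, in either orientation, in the 50 bp to each side of a summit, and sequence was not used to choose the members. An exact AP-1 site lay at the Fra-1 summit of 1421 of 2823 members (50.3%, 48.5 to 52.2). The share was 1.43% at all annotated start sites and 1.38% at positions 1 kb to either side of the member summits, and the same letters read backwards, ACTCAGT, were found at 4.18% of member summits. These letters can overlap an AP-1 site, and they were at 7.53% of members with a site and 0.785% of members without, so 4.18% is not a background share. Where present, the site lay within 10 bp of the Fra-1 summit in 36.0% and within 25 bp in 74.8%. Fra-1 fold enrichment was 9.90 (median) with the site and 7.57 without. In 5 groups of near equal size, from the strongest to the weakest Fra-1 peaks, the share with a site was 69.7%, 58.4%, 49.4%, 39.5% and 34.6%. A motif match is a description of the letters and not a proof of binding.

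Members without the exact site often held a near copy. With 1 mismatch allowed, 80.0% (78.5 to 81.4) of members had a site, against 20.5% of start sites. Among the 1402 members without an exact site, 17.3% (15.4 to 19.3) held TGAATCA, 14.1% (12.3 to 16.0) TGACTAA, 7.56% (6.29 to 9.06) TGAGTAA and 6.70% (5.51 to 8.14) TGACACA. Among start sites without an exact AP-1 site the same letters were found in 0.921%, 0.542%, 0.760% and 1.17%. Each of the other variants was found in 3.57% or fewer, and TGAGTCC stood at 1.21% in these members and 1.33% at start sites. The related site TGACGTCA, bound by CREB and ATF proteins, was found at 0.744% of member summits and 0.568% of start sites.

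The AP-1 share separated the classes near starts, while over 500 bp from a start no difference was detectable at these numbers of peaks. Over all distances the members stood 12.6 points (8.24 to 16.8) above Fra-1 peaks with E2F1 and MYC (37.8%) and differed by -9.61 points (-13.0 to -6.19) from those without either (59.9%), while the difference from distal Fra-1 and E2F1 peaks without MYC (51.4%) was -1.03 points (-3.23 to 1.16). With 1 mismatch allowed, that last difference was -3.75 points (-5.49 to -2.05). Within 100 bp of a start the shares were 45.6% in members, 25.5% with MYC and 65.6% without E2F1 and MYC, so that members stood 20.1 points (13.3 to 26.3) above the one and differed by -20.0 points (-28.1 to -11.2) from the other. Over 500 bp from a start the shares were 54.6%, 56.0% and 58.1%, and the intervals of both differences included 0 (-8.68 to 6.09 and -7.93 to 0.873). Among the members alone, the share over 500 bp exceeded that within 100 bp by 9.01 points (4.40 to 13.6).

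Base composition moved with these classes. Within 250 bp of the Fra-1 summit, members had a median of 51.3% GC, against 61.1% with MYC and 43.3% without E2F1 and MYC. The ratio of observed to expected CpG, which is high in CpG islands, had medians of 0.272, 0.563 and 0.191. Of the members, 462 (16.4%) were CpG-rich, here a ratio of 0.6 and over. Their median fold enrichment was 22.8 for E2F1 and 7.26 for Fra-1, and 52.2% of them lay within 100 bp of a start. The largest class, 1125 members (39.9%), had a ratio of 0.2 to 0.4. The 874 members (31.0%) with a ratio under 0.2 had an E2F1 median of 7.53 and a Fra-1 median of 9.47, and 14.9% of them lay within 100 bp of a start. AP-1 sites were found in 30.7% (26.7 to 35.1) of the CpG-rich members and in 52.5% to 54.9% of the members in the 3 lower CpG classes.

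At like CpG content, the interval of the difference from the class with MYC excluded 0 in the CpG-rich class and included it in the 3 lower classes. At a ratio of 0.6 and over, members stood 13.6 points (7.34 to 19.5) above the Fra-1 peaks with E2F1 and MYC, which had 17.1%. At 0.2 to 0.4 the difference was 0.0350 points (-7.61 to 7.82), at 0.4 to 0.6 it was -0.847 points (-12.1 to 10.6), and under 0.2, where the class with MYC had 50 peaks, it was -13.1 points (-24.8 to 1.11). Against Fra-1 peaks without E2F1 and MYC the members differed by -5.58 points (-10.7 to -0.431) under 0.2, and the interval excluded 0 also at 0.4 to 0.6 (-24.1 to -1.24) but not in the other 2 classes. The CpG classes were set after the data were seen.

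**Figure D4:**
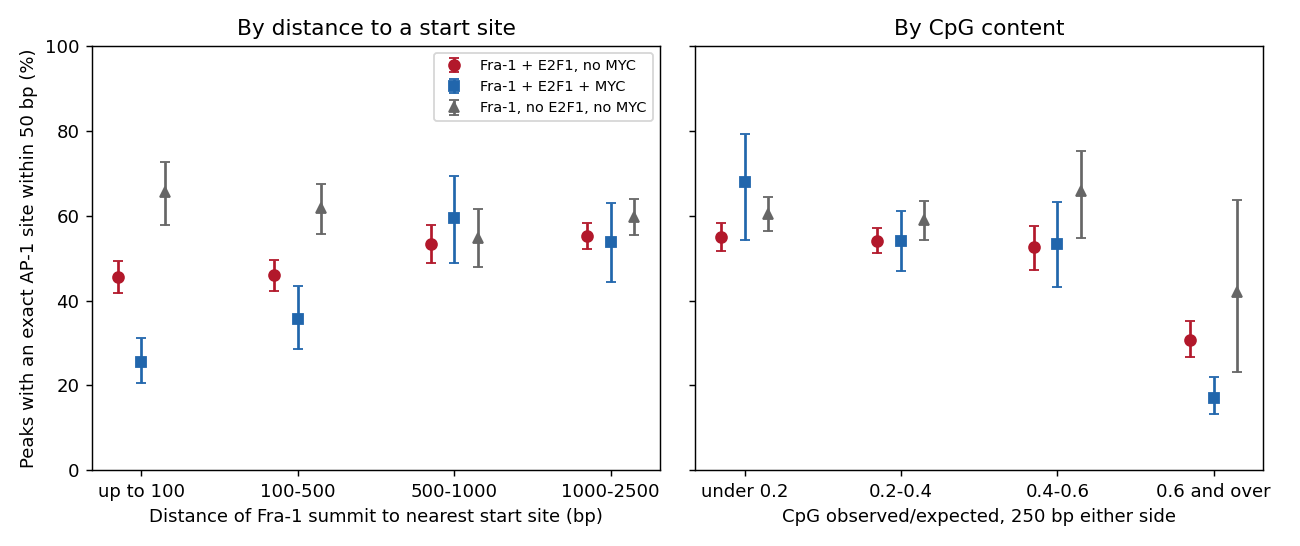
Share of Fra-1 peaks with an exact AP-1 site within 50 bp of the summit (y axis, percent, with 95% Wilson intervals) by distance to the nearest start (left, bp) and by CpG observed to expected ratio (right), for members (red circles), Fra-1 peaks with E2F1 and MYC (blue squares) and Fra-1 peaks without E2F1 and MYC (grey triangles). The classes stand apart within 100 bp of a start, at 45.6%, 25.5% and 65.6%, and their intervals overlap beyond 500 bp.

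At the E2F1 summits of the members the AP-1 letters were common and the E2F letters rare. Over the 2755 distinct E2F1 peaks, 32.8% (31.1 to 34.6) had an exact AP-1 site at the E2F1 summit, against 1.93% of 18974 E2F1 promoter peaks that overlapped neither Fra-1 nor MYC, a difference of 30.9 points (29.2 to 32.7). The rule required a Fra-1 peak in the one group and the other was chosen to have none. This difference in the letters bound by Fra-1 is therefore a description and not a separate finding about E2F1. An E2F site, searched as TTTCCCGC, TTTGGCGC, TTTCGCGC or TTTGCCGC, was found at 1.09% (0.764 to 1.55) of the members' E2F1 summits and at 2.07% (1.87 to 2.28) of the others, a difference of -0.977 points (-1.37 to -0.477). The E2F letters were at 0.865% of all start sites, and read backwards they were at 0.472% of the members' E2F1 summits and 1.23% of the others. The reversed letters were thus also less frequent in the members, by a difference of -0.761 points (-1.02 to -0.396), so the lower share was not particular to the E2F letters. With summits up to 50 bp apart, where the windows around both summits share most of their bases, 49.5% (47.0 to 51.9) of E2F1 summits had an AP-1 site. With summits over 50 and up to 250 bp apart the share was 10.4% (8.65 to 12.5), and over 250 bp it was 10.1% (6.95 to 14.5), both above the 1.93% of E2F1 promoter peaks alone. Windows of summits up to 100 bp apart still share bases, and 64 E2F1 peaks held 2 or more members. Both shares therefore do not show AP-1 letters at E2F1 summits away from every Fra-1 summit. No match says only that these letters were not in the window.

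The E-box, the GC box and the ETS site were less frequent in the members than in the class with MYC. The E-box CACGTG was at 1.38% of member Fra-1 summits and 6.90% of those with E2F1 and MYC, a difference of -5.52 points (-7.84 to -3.69). The GC box GGGCGG was at 9.28% against 18.6% (-9.27 points, -12.7 to -6.18) and at 1.24% without E2F1 and MYC. The ETS site CCGGAAG was at 2.20% against 8.70% (-6.51 points, -9.06 to -4.43). MYC peaks set these classes apart by the rule, and each of these motifs contains the letters CG. The classes also differ in GC and CpG content, as above, and the part of composition in these differences was not tested. The TEAD site ACATTCC, bound by the partners of YAP, was at 4.22% (3.53 to 5.02) of member summits and 1.09% of start sites, and the RUNX site TGTGGTT at 3.83% (3.18 to 4.60) and 1.48%. At the members' E2F1 summits they were at 3.59% and 3.77%, and at E2F1 promoter peaks alone at 1.10% and 1.24%. The differences were 2.49 points (1.84 to 3.27) and 2.54 points (1.87 to 3.33). Overlap with Fra-1 chose the one group and was excluded from the other, and 56.9% of members had both summits within 50 bp. These windows therefore largely repeat those at the Fra-1 summits and are not a separate result. At Fra-1 summits the difference of the members from the class with MYC was 1.42 points (-0.346 to 2.74) for TEAD and 0.870 points (-0.919 to 2.20) for RUNX, and both intervals included 0. From distal Fra-1 and E2F1 peaks without MYC it was -0.738 points (-1.61 to 0.204) for TEAD and -1.55 points (-2.41 to -0.627) for RUNX. The CCAAT box was at 10.3% of member summits, near its 11.6% at start sites, and TATAAA at 2.98%, below its 4.33% there.

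The base beside the AP-1 core differed from that in the classes without MYC. Over 1548 sites in the members (3096 flanks), the base just outside the 7 letters, read outward on each side, was A in 28.8% (27.3 to 30.5), C in 29.1%, G in 36.1% and T in 5.94%. The intervals here count every flank as independent. Flanks share a site and some sites share a peak, so the intervals may be too narrow. In Fra-1 peaks without E2F1 and MYC it was A in 39.1% (36.6 to 41.5), and in distal Fra-1 and E2F1 peaks in 34.3% (33.2 to 35.3). In Fra-1 peaks with E2F1 and MYC it was A in 26.3% (22.6 to 30.3), an interval that overlaps that of the members. The classes also differ in GC content, as above, and its part in this difference was not tested. An AP-1 site was single in 1297 members, and 124 members held 2 or more.

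Of 20098 protein-coding genes, 1714 (8.53%) had a member in the window of at least one of their starts, and 299 of these had 2 or more. Since the rule used these peak calls, the counts below are a description. Any annotated start of a gene counted, so a region named for a gene may lie at an alternative start inside it, as in the coding exons of CD44 and FN1. With canonical starts only, 925 genes had a member, and the gene lists were not recounted in that setting. Among the 1714 genes, 430 (25.1%, 23.1 to 27.2) also had a MYC peak elsewhere in a promoter window, so absence of MYC holds for the region and not for the gene. A MYC promoter peak was found at 17.8% (17.3 to 18.4) of all protein-coding genes, at 17.2% (16.6 to 17.7) of those without a member, and at 29.7% (28.8 to 30.5) of those with an E2F1 promoter peak but no member. The gene lists below were written with earlier results of these data known, so their shares are set beside 8.53% without a test. That 8.53% also counts genes without an E2F1 promoter peak, while most genes of every list had one. Genes with many starts have more windows, and neither was corrected for.

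**Figure D5:**
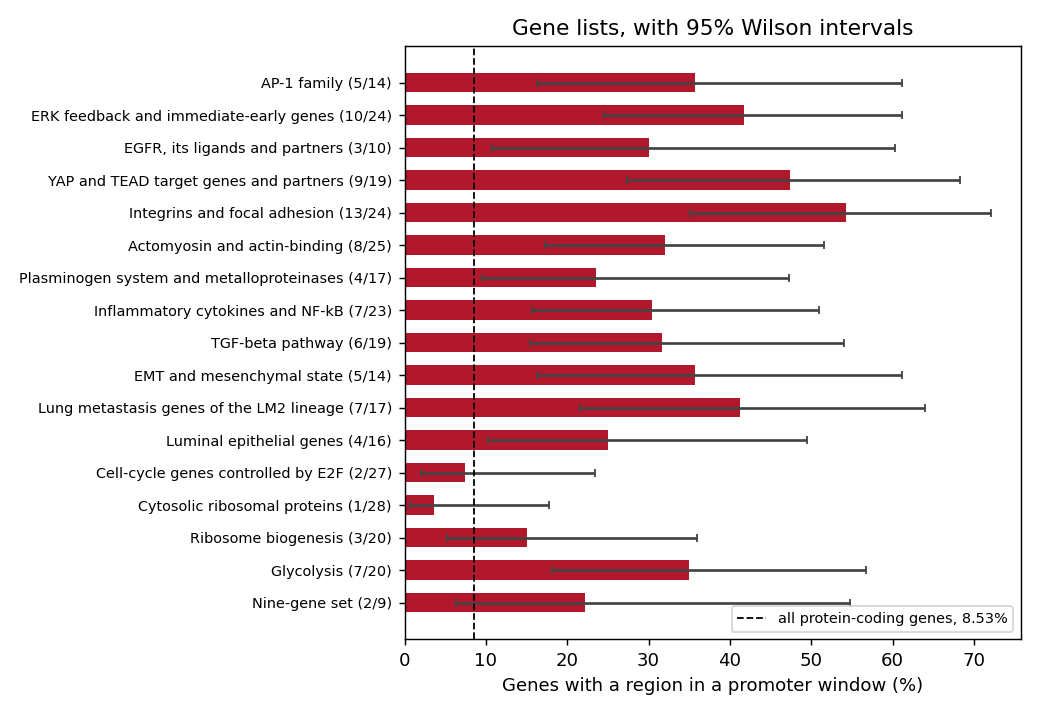
Share of the genes of each list with a member in a promoter window (bars, percent, from 0, with 95% Wilson intervals; counts of genes in brackets), with a dashed line at the 8.53% of all protein-coding genes. Integrins and focal adhesion stand highest at 54.2%. The intervals of cell-cycle genes (7.41%), ribosomal proteins (3.57%), ribosome biogenesis (15.0%) and the nine-gene set (22.2%) span the line.

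Genes of the AP-1 family itself were among those with a member, 5 of 14 (35.7%), or 3 with a window of 1 kb either side of a start. At FOSL1 the Fra-1 peak (chr11:65667704-65667993) had 12.6-fold and E2F1 61.9-fold, with summits 3 bp apart, the Fra-1 summit 5 bp upstream of the start and an AP-1 site 7 bp from it. A MYC peak lay elsewhere in its window. JUNB had 17.8-fold for Fra-1 and 26.7-fold for E2F1, downstream of the gene's start by 2158 bp, with MYC elsewhere in its window too. FOSL2 had 8.40-fold and 23.4-fold, 18 bp from a start. JUN, added to the 4 others because it completes the 5, had 7.63-fold within an E2F1 peak 5591 bp wide that reached 63.6-fold. ATF3 had 8.78-fold and 4.27-fold in an intron.

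The list of ERK feedback and immediate-early genes, which limit or report the signalling that raises Fra-1, had a member at 10 of 24 genes (41.7%), or 6 with a window of 1 kb either side of a start. IER2 had 13.0-fold for Fra-1 and 83.9-fold for E2F1, with summits 1308 bp apart. DUSP5, a nuclear phosphatase of ERK, had 11.1-fold and 28.8-fold, and SPRED2, an inhibitor of RAS signalling, 10.5-fold and 17.3-fold, both with an AP-1 site 3 bp from the Fra-1 summit. KLF6 had 10.2-fold and 23.2-fold. Upstream in that pathway, 3 of 10 genes of the EGFR list had a member. ERBB2 had 8.12-fold and 39.2-fold in a 5′ UTR exon 58 bp from a start. ERBB3 had 5.58-fold and 18.7-fold, and EGFR 4.41-fold and 5.5-fold in an intron. A MYC promoter peak was found at 0 of the 10 genes, beside 17.8% of all protein-coding genes, a difference too small to read in 10 genes.

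Genes of the YAP and TEAD pathway, which senses cell shape and tension, had a member at 9 of 19 (47.4%). ANKRD1, a widely used YAP target, had 20.3-fold for Fra-1 and 11.5-fold for E2F1, 271 bp upstream of its start. WWTR1, which encodes TAZ, had 13.4-fold and 14.4-fold with an AP-1 site 3 bp from the summit. The junction proteins AMOTL1 and AJUBA each had 13.4-fold for Fra-1, with 7.68-fold and 14.8-fold for E2F1 and no exact AP-1 site.

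Adhesion and cytoskeleton genes followed. Integrins and focal adhesion had a member at 13 of 24 genes (54.2%), the highest share of the 17 lists. CD44, a hyaluronan receptor, had 16.1-fold for Fra-1 and 7.56-fold for E2F1, and the integrin gene ITGB5 14-fold and 4.72-fold. CAV1, the gene of caveolin, had 13.0-fold and 34.7-fold, and ITGB1 12.9-fold and 22.2-fold. The actomyosin list had 8 of 25 (32.0%). MYH9, the heavy chain of non-muscle myosin, had 18.6-fold and 11.3-fold with the AP-1 site 1 bp from the summit. LIMA1 had 15.7-fold and 11.3-fold, TAGLN2 13.9-fold and 13.0-fold, and TPM2, a tropomyosin gene, 10.3-fold and 5.61-fold.

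Secreted proteases and cytokines had members too. The plasminogen and metalloproteinase list had 4 of 17 (23.5%). PLAT, the tissue plasminogen activator gene, had 15.0-fold for Fra-1 and 11.8-fold for E2F1. MMP1, a collagenase gene, had 11.5-fold and 16.7-fold, TIMP2 7.03-fold and 6.02-fold, and PLAUR, the urokinase receptor gene, 4.62-fold and 19.5-fold. Cytokines and NF-kB had 7 of 23 (30.4%). TNFAIP2 had 19.7-fold and 11.4-fold, CSF2 11.7-fold and 13.2-fold at 38 bp from its start, IL11 8.82-fold and 45.0-fold, and RELA 7.60-fold and 17.5-fold.

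TGF-beta pathway genes had a member at 6 of 19 (31.6%). TGFBI, an extracellular matrix protein gene, had 17.3-fold for Fra-1 and 8.44-fold for E2F1, with summits 4 bp apart. TGFBR2, a receptor gene, had 14.5-fold and 31.4-fold, 10 bp from its start with an AP-1 site 7 bp from the summit. SMAD3, a signal transducer, had 5 members, the strongest at 14.2-fold and 13.2-fold. LTBP2 had 9.91-fold and 6.43-fold. The EMT list had 5 of 14 (35.7%). HMGA1 had 21.1-fold and 19.8-fold, FN1, the fibronectin gene, 13.4-fold and 6.29-fold, SPARC 6.74-fold and 7.35-fold, and ID1 6.71-fold and 33.2-fold.

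The genes known for lung metastasis of the LM2 lineage had a member at 7 of 17 (41.2%). A MYC promoter peak was found at 0 of the 17, beside 17.8% of all protein-coding genes, and nothing is read from so short a list. LTBP1, which holds latent TGF-beta in the matrix, had 3 members, the strongest at 20.3-fold for Fra-1 and 12.2-fold for E2F1 at an internal start. ANGPTL4 had 13.4-fold and 8.90-fold. MMP1 is given above, and FSCN1, the gene of an actin-bundling protein, had 7.99-fold and 10.7-fold. Luminal epithelial genes had 4 of 16 (25%). KRT8 and KRT18, neighbouring keratin genes, shared one region with 16.4-fold and 40.3-fold. KRT19 had 12.5-fold and 14.4-fold, and TFF1 10.2-fold and 8.02-fold. ESR1, GATA3 and FOXA1, which define luminal cells and are named after their values were seen, had none. As 8.53% of all protein-coding genes had a member, nothing is read from so few genes.

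Cell-cycle and ribosomal protein genes are classic targets of E2F and MYC, and the intervals of their shares (2.06 to 23.4% and 0.633 to 17.7%) include the 8.53% of all protein-coding genes, so the counts do not set them apart. All 27 cell-cycle genes had an E2F1 promoter peak and 12 had a MYC peak, and 2 (7.41%) had a member, or 0 with a window of 1 kb either side of a start. Of these, MCM7, a replication helicase gene, had 8.97-fold for Fra-1 and 14.8-fold for E2F1. That summit lay 1498 bp upstream of the MCM7 start but 130 bp from the nearest start of any gene. The region also touched the window of AP4M1. The 28 ribosomal protein genes all had E2F1 and MYC peaks, and RPL3 alone (3.57%) had a member, at 3.99-fold for Fra-1. Ribosome biogenesis had 3 of 20 (15.0%, 5.24 to 36.0, an interval that also includes 8.53%), at UBTF, NOLC1 (12.6-fold and 46.1-fold) and NOP58 (9.91-fold and 7.66-fold). Glycolysis had 7 of 20 (35%, 18.1 to 56.7), or 4 of 20 with a window of 1 kb either side, and the difference from the other lists was not tested. Of the 7, 6 had a MYC peak elsewhere in a window. After PFKP, ENO1, the enolase gene, had 18.6-fold and 13.5-fold, HK1 13.8-fold and 7.27-fold, and PKM 13.4-fold and 19.7-fold, all with an AP-1 site. The nine-gene set had 2 of 9 (22.2%, 6.32 to 54.7, an interval that also includes 8.53%). Of its genes, SFN had 2 members (9.21-fold and 6.71-fold for Fra-1, 40.9-fold and 64.6-fold for E2F1) and SH3GL1 1 (9.91-fold and 24.0-fold), and the E2F1 gene had none.

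Members just inside and just outside the rule show how fine its edges are. PDE2A shared 3 bp with an E2F1 peak, while the Fra-1 peak at CDK5RAP3 missed one by 10 bp. RCN1, a member at 5.91-fold and 34.3-fold, lay 1 bp from a MYC peak, and a peak at ABCC5 was left out for 7 bp of overlap with MYC. One SMAD3 member touched its window by 1 bp, and a peak at AHNAK missed a window by 7 bp. The weakest Fra-1 peak by q was at CCDC85B (-log10 q of 2.09) and the weakest E2F1 peak at GRAMD4 (2.04). A MYC peak lay within 500 bp of 118 members (4.18%) and within 1 kb of 174 (6.16%). MYC was called at 4867 sites from 23853621 fragments kept after duplicate removal, E2F1 at 36933 from 18056168 and Fra-1 at 17320 from 12931227. The lists hold no values below their threshold, so a region without a MYC peak may hold weaker MYC signal.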

How the data were processed

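The data were 3 lists of ChIP-Seq peaks from LM2 cells, for Fra-1, E2F1 and MYC, with 1 library each and 1 shared input. According to the study's methods, reads were trimmed with Trimmomatic (0.27 per the labels), aligned with Bowtie (0.12.5) to masked hg19, restricted to unique alignments and cleared of duplicates, and peaks were called per library with MACS2 2.0.10.20120913 at a q cutoff of 0.01, per the file headers. The masking leaves out repeats. The deposited signal is the whole-number pileup at the summit, scaled between libraries. The deposited fold enrichment is the ratio of pileup to the local input background, with a constant added to both. The deposited −log10 p-values and −log10 q-values are MACS2's.

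From these lists, overlaps, distances, motif shares and base composition were computed in Python 3.11.15 (pandas 2.3.3, pysam 0.24.0) with GENCODE 44 lifted to GRCh37 (63827 genes, 219838 start positions) and its sequence. Where a member met several E2F1 peaks (10 members), the one with the largest fold enrichment was used. Shares carry 95% Wilson intervals and differences 95% Newcombe intervals. No replicate test was possible. The code was tested on simulated data. Depth was 12931227 to 23853621 fragments kept per library.

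Members and gene lists were chosen with earlier results of these data known. Named genes are those at the 10 members with the largest Fra-1 fold enrichment, the 10 with the largest minimum of both factors, up to 4 per list by Fra-1 fold enrichment, the 5 strongest with an AP-1 site at a protein-coding start, the members nearest to each threshold, and FOSL1, MYC, E2F1 and the nine-gene set. Genes named outside this rule are marked as such. The values of 1 gene that the rule names are not reported here. MYC has no member. The fourth factor and the EZH2 library were not analysed here. Alternatives are given in the closing section.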

Additional observations from a re-analysis of the deposited data

How the results depend on the processing

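The number of members stayed within 1.5 times of 2823 under 8 of 10 alternatives (1912 to 2758). It was 68 when the Fra-1 and E2F1 lists were reduced to the number of MYC peaks, and 922 with canonical protein-coding starts only, an alternative chosen after seeing the data. Genes with a member were then 62 and 925. In those 2 settings the AP-1 share was 69.1% and 43.2%, and in the first the E2F share at E2F1 summits was 3.03% and the share within 1 kb of a start 72.1%. That last share was 68.5% with protein-coding starts only and 95.1% with a window of 1 kb either side, which fixes it. The AP-1 share was 57.3% with the motif within 100 bp, 56.7% anywhere in the peak and 80.0% with 1 mismatch allowed, and the E2F share within 100 bp was 1.74%. GC content within 50 bp was 52.5%. With −log10 q of at least 5 the median fold enrichment was 9.24 for Fra-1 and 9.71 for E2F1, and with no MYC peak within 1 kb it was 8.75 for E2F1. The E2F share of the members stayed below that of E2F1 promoter peaks alone in all settings, but the interval of the difference included 0 with the reduced lists (-3.94 to 5.82) and with canonical starts (-1.19 to 0.650). With a window of 1 kb either side, genes with a member fell from 5 to 3 in the AP-1 family, 10 to 6 in ERK feedback, 7 to 4 in glycolysis and 2 to 0 in the cell-cycle list. With 1 library per factor, no replicate could be left out. No paired analysis was possible because each factor has 1 sample. Depth differs between libraries, and a peak absent from a list is not shown to be absent from the cells.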

Other observations

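Some genes gathered several members across alternative starts. LMNA, the gene of the nuclear lamins A and C, and SEPTIN9, a septin filament gene, had 6 members each, and CCDC85C, SMAD3 and SSBP3 had 5 each (genes chosen after their values were seen). In all, 62 genes had 3 or more. Genes with many annotated starts have more windows, and this was not corrected for.

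By chromosome, members were most frequent per 100 protein-coding genes on chromosome 15 (21.6) and least on X (3.91), followed by chromosome 19 (8.11) and 16 (8.48). The copy number of these chromosomes in LM2 cells was not examined.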
